A study of Mus musculus with 3 samples.

Results

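The whole span from E11.5 to E15.5 of H3K36me3 in the fetal mouse pancreas was examined in 18688 genes, which are 76.8% of the 24318 identified genes in the files. Genes were joined between the E11.5 and E15.5 libraries by Ensembl identifier and kept where signal in the window headed GB was above 0 in both, whatever its size. A further 1 gene met this rule but lacked a value in the SE window, and the rows without an identifier stayed out. Both groups were EpCAM-sorted pancreatic epithelial cells of wild-type C57BL/6 embryos, one at embryonic stage E11.5 and the other at E15.5, and the same anti-H3K36me3 antibody was used in CUT&Tag for both. CUT&Tag tethers a transposase to an antibody, so that DNA next to the marked nucleosome is cut and tagged for sequencing. There was 1 library per stage, and the labels do not say how many embryos it pooled. Every difference below is therefore a size between these libraries, with no test and no replicate error. The E13.5 library, also of 1 sample, served as a reference outside the contrast, and the series' design text gives its day slightly differently from the sample labels, which were followed. No library made without the antibody was analysed here.

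H3K36me3 is laid down by the methyltransferase SETD2, which travels with elongating RNA polymerase II, so the mark marks transcribed gene bodies and is typically low around their starts. At E11.5 the pancreatic epithelium consists largely of multipotent progenitors, and by E15.5 acinar, endocrine and ductal cells are differentiating from it. The identity of the sorted cells could not be checked against epithelial, mesenchymal, endothelial or blood markers, because the reference table paired 0 of the identifiers with a gene symbol. For the same reason no gene, promoter or protein is named or printed here, and the question of which known genes moved together is answered with identifiers only.

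The 3 windows were placed relative to each other from the values. In each library, values of PR multiplied by 6000, and of SE by 12000, fell on multiples of one step, in 100% of values above 0 at a tolerance of 0.0051. With a step 3% larger, between 3.96% and 5.92% were. No source states what a step stands for, so the depth behind a value is unknown. Of the PR sums above 0, 93.0% at E11.5 and 95.1% at E15.5 were even numbers of steps, and among sums of 300 steps or more 92.0% and 94.6% were. Sums over PR were spread wider at E15.5. The lower quartile was 36 steps at E11.5 and 4 at E15.5, the median 146 and 206, and the upper quartile 308 and 638. PR was at 0 in 7.59% of identified genes at E11.5 and in 22.1% at E15.5. The sources used here do not say how duplicate reads were treated, so no counting interval was put on any value.

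The length of the GB window was recovered for 14642 of the 18688 genes, with a median of 22613 positions. In all 1116 rows of the files, identified or not, with a GB window under 3000 positions, the signal sum over PR was at least that over GB, in every library. From 3000 to 3500 positions this held in 93.9% of 296 rows at E11.5, and from 4500 to 6000 positions in 54.9% of 874 rows. The same break lay at 6000 positions for SE. The SE sum was at least the GB sum in every row with a GB window under 6000 positions, and in 93.0% of 544 rows from 6000 to 7000 positions at E11.5. This is the pattern of a PR window that reaches 3000 positions, and an SE window that reaches 6000, into the gene from one of its ends, with as much on the other side. Which end it is cannot be read from the values. Both windows were taken to lie at the same end, so that SE holds PR. In the 10 highest-ranked genes of each direction below, the SE sum was at least the PR sum at every stage. That comparison over all genes is not given here. In genes with a GB window of at least 50000 positions, called long genes here, PR can therefore share at most 6% of the positions of GB and SE at most 12%.

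**Figure D1:**
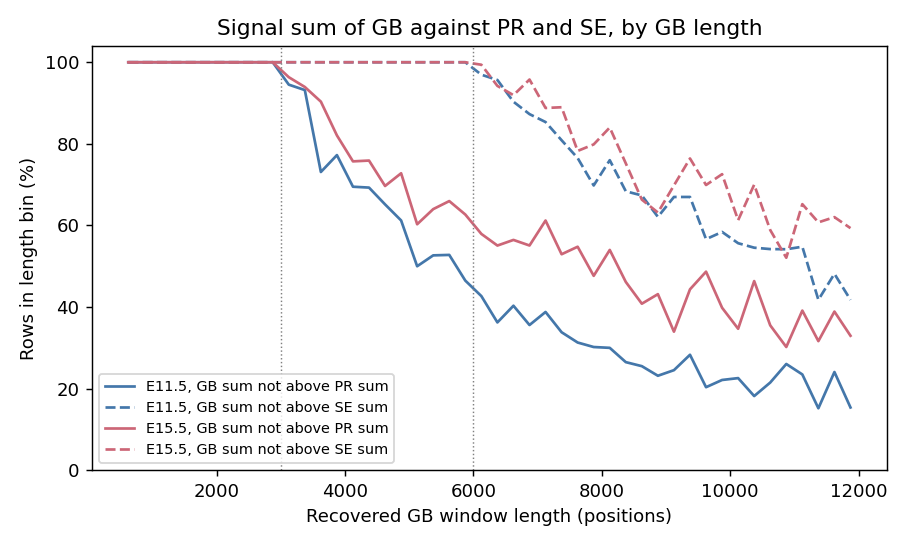
Share of rows (y axis, %) whose GB signal sum does not exceed the PR sum (solid) or the SE sum (dashed), by recovered GB length in bins of 250 positions with at least 20 rows (x axis), at E11.5 (blue) and E15.5 (red). Both stages stay at 100% up to 3000 positions for PR and up to 6000 for SE, the places of the dotted lines, and fall beyond them.

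Signal in PR was higher at E15.5 in most genes, whereas GB was split almost evenly. PR was higher in 60.1% and lower in 37.6% of the 18688 genes, with a median log2 ratio of 1.20 over the 15281 genes above 0 at both stages. For GB, 51.8% were higher and 48.1% lower, and the median log2 ratio was 0.06. This even split holds only for the genes kept. The rule left out 2481 identified genes with GB at 0 only at E15.5, and 686 with GB at 0 only at E11.5. SE, which holds PR, was higher in 60.5% and lower in 38.7%. The part of SE outside PR, 3000 to 6000 positions from the gene end on either side, went the other way, and was higher in 41.6% and lower in 54.9%. Over the 12674 genes above 0 there at both stages its median log2 ratio was nevertheless 0.36, since 4660 genes with signal at E11.5 were at 0 at E15.5. In stage order from E11.5 to E15.5, median PR was 0.00437, 0.00396 and 0.00836 in deposited units per position. Median signal outside PR was 0.00389, 0.00380 and 0.00179. At E15.5 median PR was thus higher and median signal outside PR lower. Mean signal outside PR rose all the same, from 0.00553 at E11.5 to 0.00692 at E15.5, and its upper quartile from 0.00823 to 0.0105. These are levels over all genes and do not show what lay beside a raised PR.

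Differences of at least 2-fold were common in every window. In GB, 4719 genes (25.3%) were 2-fold or more higher and 4146 (22.2%) lower. In PR, 8174 genes (53.5%) were higher by that size and 3104 (20.3%) lower, of 15281 above 0 at both stages. In SE, 7563 genes (43.5%) were higher and 3675 (21.1%) lower, of 17383. The balance in GB turned with length: among GB windows of at least 6000 positions 21.04% were higher by that size and 21.75% lower, and in windows of at least 50000 positions 6.93% and 16.2%. PR was above 0 at E11.5 and at 0 at E15.5 in 2346 genes, and the reverse held in 633, for which no fold is given. Quantile normalization forces the same distribution on each library. It brought the median log2 ratio of PR to 0.07 and left 36.9% of genes at least 2-fold higher in PR and 35.0% lower.

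In long genes the contrast between PR and GB was sharper. In stage order, mean GB of these 3797 genes was 0.00478, 0.00468 and 0.00471, and median GB was 0.00432, 0.00425 and 0.00379. Mean PR was 0.00488, 0.00455 and 0.0119, and its upper quartile was 0.00739, 0.00681 and 0.0179. The lower quartile of PR moved the other way and was 0.000863 at E11.5 and 0.000543 at E15.5. The part of SE outside PR had a mean of 0.00432 at E11.5 and 0.00463 at E15.5, but a median of 0.00291 and 0.000652. It was at 0 in 9.14% of long genes at E11.5 and in 36.1% at E15.5. Signal near the gene end was thus spread wider over long genes at E15.5, at both its low and its high side.

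**Figure D2:**
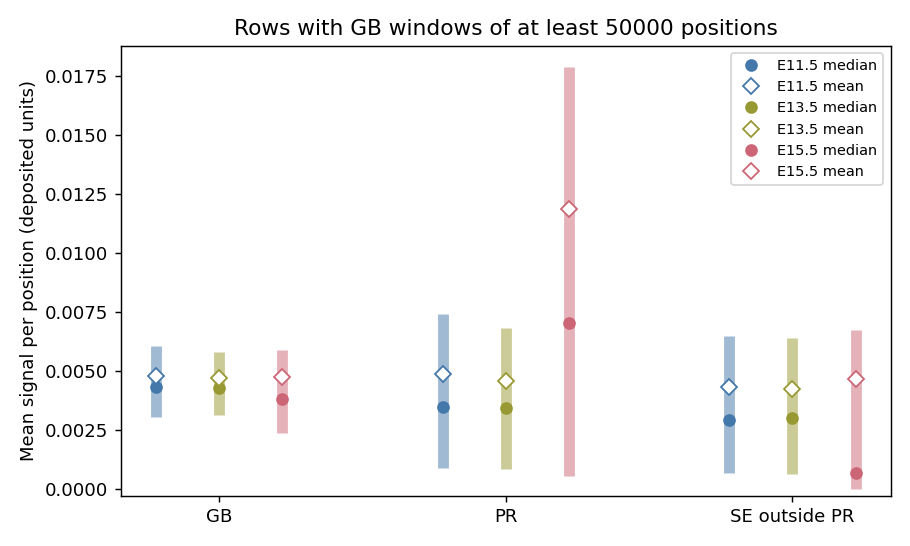
Mean signal per position in deposited units (y axis) in the GB window, the PR window and the part of SE outside PR (x axis) over 3797 long genes, for E11.5 (blue), E13.5 (olive) and E15.5 (red). Thick bars span the lower to the upper quartile over genes, filled circles are medians and open diamonds means; mean PR at E15.5 is 0.0119 against 0.00488 at E11.5, while mean GB is 0.00471 against 0.00478.

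GB, PR and SE differed in one direction in most genes, but SE holds PR, so these are not 3 separate readings. GB, PR and SE were all higher at E15.5 in 6514 genes (34.9%) and all lower in 3910 (20.9%). In the agreeing genes 62.5% were therefore higher. In the genes with all windows higher, median GB in stage order was 0.00481, 0.00556 and 0.0119, and median PR was 0.00383, 0.00458 and 0.0211. In those with all windows lower, median GB was 0.00574, 0.00428 and 0.00220, and median PR was 0.00685, 0.00357 and 0.000435. These directions were fixed by how the genes were chosen. Choosing on the outer stages also draws the E13.5 medians towards a place between them, so their position is a description only. PR was at 0 at E15.5 in 1329 of the 3910 genes that were lower, and at 0 at E11.5 in 287 of the 6514 that were higher. With the part of SE outside PR in place of SE, directions no longer agreed in most genes. Then 3686 (19.7%) were higher in every window and 3041 (16.3%) lower.

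Fewer genes had a large difference in every window. Of the 15281 genes with all 6 values above 0, 2590 (16.9%) were 2-fold or more higher in GB, PR and SE and 988 (6.47%) were 2-fold or more lower. Needing values above 0 left out more falls than rises. It removed 1329 genes lower in all windows for PR at 0 at E15.5, and 287 higher ones for PR at 0 at E11.5. With 0.001 added to each value, which keeps such genes, the shares were 12.2% higher and 5.75% lower of 18688. At 4-fold the counts were 853 and 415, and at 8-fold 261 and 208, so the excess of higher genes narrowed from 2-fold upward. In long genes the counts were 144 and 111 at 2-fold, and 9 and 18 at 4-fold. The 2590 genes at least 2-fold higher in all windows held 32.9% of the summed PR signal of the 18688 genes at E15.5 and 10.6% at E11.5, a direction that follows from their selection on PR. Their GB windows were short, with a median recovered length of 10265 positions, against 22613 over the 18688 genes where a length was recovered. Those at least 2-fold lower had a median of 14381. Short GB windows share more of their positions with PR and SE, which by itself favours agreement in either direction.

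Of the remaining genes, 436 (2.33%) were equal at both stages in at least 1 window, and the others had windows in opposite directions. GB was lower while PR and SE were both higher in 3148 genes (16.8%), and GB was higher while PR and SE were both lower in 1584 (8.48%). Among the first, median GB in stage order was 0.00584, 0.00481 and 0.00337, whereas median PR was 0.00318, 0.00396 and 0.0152. The opposition reached at least 2-fold in each of the 3 windows in 494 of these genes, and in 136 of the others. In long genes the combination of lower GB with higher PR and SE was found in 934 genes (24.6%), nearly as often as all windows higher. PR and SE differed in direction from each other in 599 and 974 genes with PR higher, and in 820 and 703 genes with PR lower, where the first count of each pair is of genes with higher GB.

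PR was more often higher where GB was higher than where GB was lower, also where the windows share few positions. Over all 18688 genes, PR was higher in 73.4% of the 9688 genes with higher GB and in 45.8% of the 8996 with lower GB, 27.6 percentage points apart. Part of this comes from shared positions by construction. The gap was 60.7 points in GB windows under 3000 positions, which lie within PR, and 44.5 points from 3000 to 6000. In long genes it was 19.1 points, with PR higher in 70.3% of 1588 genes with higher GB and in 51.2% of 2208 with lower GB. Over long genes together PR was thus higher in most whichever way GB went, but only narrowly where GB was lower. From 200000 to 400000 positions the gap was 14.6 points. There PR was higher in 62.2% of 230 genes with higher GB and in 47.6% of 412 with lower GB. After quantile normalization of each window it was 24.1 points over all genes and 12.3 in long genes. The part of SE outside PR followed GB less closely, 14.0 points apart in long genes. Over the 2939 long genes above 0 in PR at both stages, the log2 ratio of PR varied much more than that of GB, with SDs over genes of 2.97 and 0.88. PR is a mean over 6000 positions and GB here over at least 50000, so these spreads are not on a like footing. PR held only 1 to 20 steps in 12.2% of identified genes at E11.5 and in 8.13% at E15.5. The share of the spread due to window size was not tested.

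**Figure D3:**
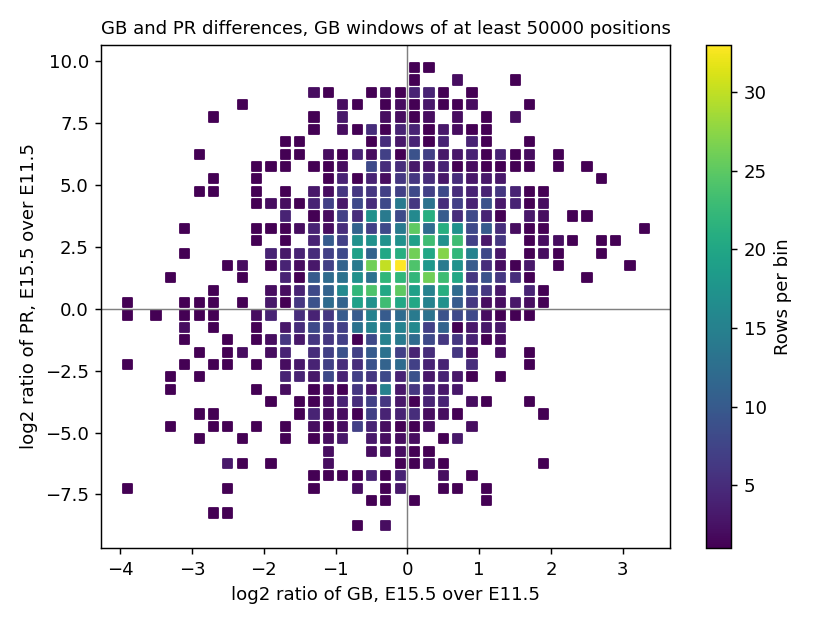
log2 ratio of PR (y axis) against log2 ratio of GB (x axis), E15.5 over E11.5, for long genes above 0 in both windows; each square is a bin coloured by its number of genes, and 2934 of 2939 genes lie within the axes. PR ratios spread over a much wider range than GB ratios, and 1034 genes are higher in both, 1030 higher in PR and lower in GB, 268 lower in PR and higher in GB, and 604 lower in both. PR is a mean over 6000 positions and GB over at least 50000, so the spreads are not on a like footing.

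The balance of agreeing genes changed with gene length. All windows were higher in 52.9% of 652 genes with GB windows under 3000 positions, 41.1% of 2373 from 6000 to 12000, 33.5% of 6451 from 12000 to 50000, and 19.6% of 642 from 200000 to 400000. All windows were lower in 18.3%, 20.0%, 20.6% and 27.1% of the same genes. GB windows under 3000 positions lie within PR, so agreement in the shortest class rests in part on shared positions. The direction of GB alone followed the same order, from 69.5% of genes higher in the shortest class to 35.8% in the longest. PR was higher in 67.8% of the shortest and 52.8% of the longest. The median log2 ratio of GB was 1.42 in the shortest class and -0.23 in the longest. In long genes together, 997 had all windows higher (26.3%) and 872 all lower (23.0%), which makes 53.3% of the agreeing genes higher. After each library was divided by its median GB, 1293 were higher and 698 lower, or 64.9%, so the balance in long genes depended on the scaling.

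**Figure D4:**
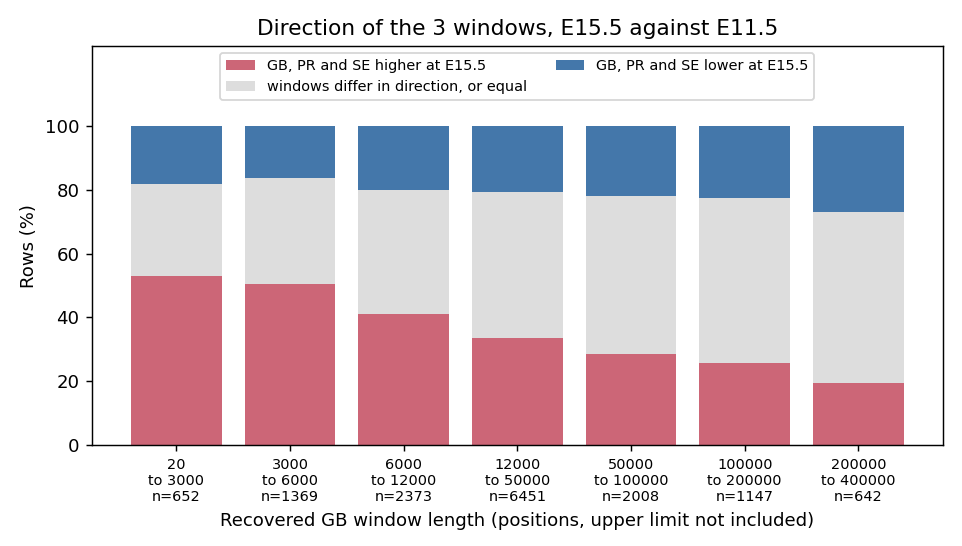
Share of genes (y axis, %) with GB, PR and SE all higher at E15.5 (red), all lower (blue) or of mixed or equal direction (grey), by recovered GB length (x axis, number of genes under each bar). The red share falls from 52.9% in the shortest class to 19.6% in the longest, and the blue share rises from 18.3% to 27.1%. In the shortest class GB lies within PR, so its windows share positions.

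Long genes were next sorted by GB at E13.5, a library outside the contrast, into 5 groups of 759 or 760 genes. In the group with the highest E13.5 level, 34.7% had all windows higher at E15.5 than at E11.5 and 15.4% all lower. In the lowest group the shares were 21.7% and 28.4%. With each library divided by its median GB they were 43.7% and 12.2% in the highest group and 25.7% and 24.3% in the lowest, so the excess of lower genes in the lowest group depended on the scaling. Median PR of the highest group, in stage order, was 0.0051, 0.00530 and 0.0121, and of the lowest 0.00173, 0.00181 and 0.00206. Median GB was 0.00691, 0.00752 and 0.00703 in the highest group and 0.00263, 0.00225 and 0.00208 in the lowest. Over the genes above 0 in PR at both stages, the median log2 ratio of PR was 1.30 in the lowest group and 1.40 in the highest, so among those genes the relative size was much the same. The groups also differed in length, with a median of 80214 positions in the highest and 99612 in the lowest. Within GB windows of 50000 to 100000 positions, where group medians ran from 66228 to 68334 positions, the shares with all windows higher were 35.8% in the highest group and 25.4% in the lowest, and those with all lower 13.9% and 29.9%.

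**Figure D5:**
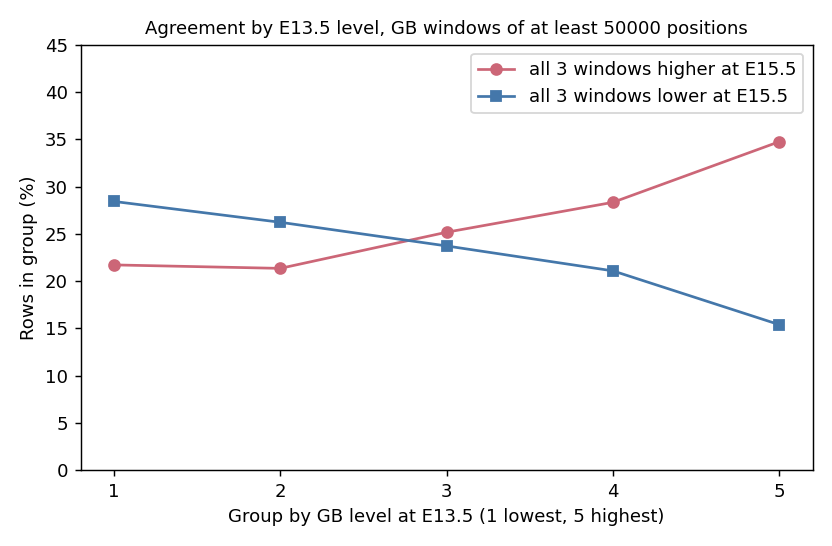
Share of long genes (y axis, %) with all 3 windows higher (red circles) or all lower (blue squares) at E15.5 than at E11.5, in 5 groups by GB level at E13.5 (x axis, 1 lowest). The share higher is 21.7% in group 1 and 34.7% in group 5, and the share lower 28.4% and 15.4%.

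Genes with all 3 windows in one direction were ranked by the smallest of their 3 log2 ratios, among those with all 6 values above 0, a GB window of at least 6000 positions and values at or above the window's median in the higher library. At the head of the rises, ENSMUSG00000039264 had GB of 0.000405, 0.00393 and 0.0258 from E11.5 through E15.5, and PR of 0.000162, 0.00525 and 0.0146. Its GB window of 6388 positions held 16 steps at E11.5 and 1012 at E15.5, the same numbers as its SE window, so these windows were not separate readings. ENSMUSG00000042179, with a GB window of 15283 positions, had GB of 0.00108, 0.00248 and 0.0502 in stage order and PR of 0.000217, 0.00195 and 0.0234. Its GB sum at E15.5, 4712 steps, was far above the 1486 steps of SE, so most of the body signal lay beyond the SE window. Both genes were lowest at E11.5 and highest at E15.5 in each window. At E11.5 their PR windows held only 6 and 8 steps, so the order among the rises is not to be read.

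Genes that reached 0 at E15.5, such as the 1329 with PR at 0 there, have no log2 ratio and could not enter the ranking of falls. At its head, ENSMUSG00000001119 had GB of 0.0166, 0.00928 and 1.91e-05 from E11.5 through E15.5, and PR of 0.00785, 0.00536 and 2.67e-05. Its GB window of 17253 positions held 1774, 956 and 2 steps in that order. ENSMUSG00000074519, with a GB window of 12576 positions, had GB of 0.00443, 0.00157 and 2.62e-05 and PR of 0.00799, 0.000725 and 5.5e-05, and all its windows held 2 steps at E15.5. At so few steps the fold between stages has no useful precision, so none is given and the order among the falls is not to be read. Of the 10 highest-ranked genes in each direction, GB windows ran from 6053 to 25558 positions for the rises and from 6318 to 30589 for the falls. E13.5 GB lay between the other stages in 10 of the rises and 6 of the falls.

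Over whole sets, E13.5 GB lay between the other stages in 41.6% of the 6514 genes with all windows higher and in 41.2% of the 3910 with all lower, against 38.5% of all 18688. In genes at least 2-fold apart in all windows it was 57.3% of those higher and 53.1% of those lower. A wider gap between the outer stages leaves more room for a value in between, so these shares describe the genes and do not measure how gradual the differences were.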

How the data were processed

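Per the labels, H3K36me3 CUT&Tag libraries came from sorted epithelial cells, 1 per stage. Bowtie2 2.4.2 and mm10 are credited to the submitters' processing notes, while the sources used here do not give filtering, scaling or gene models. Each deposited value is signal per position, averaged by the authors over a window (PR, SE or GB). Values were used as deposited and depth is unknown. Direction was the sign of the difference, and log2 ratios used no pseudocount and only values above 0. No test between stages was possible with 1 library per stage. GB lengths were searched from 20 to 400000 positions (50000 with only 2 usable libraries) as the only length giving whole steps with sums of 2 decimals, leaving out values under 1e-04, which are written with 3 digits. Of lengths from 50000 to 200000 positions, 36.8% equalled a RefSeq (GRCm38.p6) gene length, against 5.34% after shifts of the lengths, and from 200000 to 400000 positions 25.1% against 0.603%. Length recovery and calls were checked on simulated data in which the steps of each window were drawn separately. The real windows share positions and mostly hold even numbers of steps. The simulation therefore says nothing on agreement between windows. The identifiers printed follow a rule fixed with the design: at most 2 per direction by the smallest log2 ratio of the 3 windows, since no names were to be had and the rule's named lists could not be applied. Members, lists and settings were chosen with earlier results of these data known. Python 3.11.15, numpy 2.4.6 and pandas 2.3.3 were used.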

Additional observations from a re-analysis of the deposited data

How the results depend on the processing

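Among 129 alternative values for 17 results, 28 differed from the reported value by more than 1.5 times. Nearly all are shares, which have no sign, so balances of higher against lower are given instead. The shares with all windows higher or lower kept within 1.5 times under both scalings by median GB, quantile normalization, a floor at the window median, and the limits on zeros and length that were run. With genes at 0 in GB in 1 library included, the balance narrowed. Then 31.8% of 21855 genes had all windows higher and 25.2% all lower. Causes were not tested, beyond what an alternative does by design. With the higher library at 5 times the window median, which leaves 606 genes for the agreement, 94.6% had all windows higher and 1.82% all lower. At 2-fold the shares were 79.6% and 0.497%. At that size GB gave 72.6% higher and 6.31% lower, PR 85.0% and 5.89%, and SE 91.6% and 2.03%. This floor picks genes by their higher value, and the upper tail was longer at E15.5. The 95th percentile of PR was 0.045 there and 0.017 at E11.5. A floor of this kind favours the library with the longer upper tail. How much of the lean of these shares to E15.5 comes from that choice of genes was not tested. A pseudocount of 1, far above the values, left 0.00535% for GB higher and 0% for GB lower, PR, SE and the agreement at 2-fold. In long genes the 2-fold agreement was 4.90% higher and 3.78% lower, and GB 6.93% higher and 16.2% lower, which turned the GB balance, as did windows of at least 6000 positions (21.04% and 21.75%). Division by median GB turned the balance in the lowest E13.5 group to 25.7% higher and 24.3% lower. With the part of SE outside PR in place of SE, agreement by direction was 19.7% higher and 16.3% lower. At 2-fold it was 11.7% higher and 3.12% lower, of 10880 genes. Quantile normalization gave 10.8% higher at 2-fold and PR lower in 35.0%. Thresholds of 1.5-fold and 4-fold gave 25.7% and 5.58% higher, and 4-fold 2.72% lower. Dividing by median GB moved the median log2 ratio of all genes from 0.06 to 0.28 for GB, and 69.6% of agreeing genes were then higher. Both alternatives for the groups by E13.5 level were chosen after seeing the data. Leaving out sex chromosomes and the gene-list alternatives were not run for lack of names. No paired analysis was possible because no stage had a second library.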
